A study of Saccharomyces cerevisiae with 9 samples.

Results

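The 5.8S rRNA gene of budding yeast was examined nucleotide by nucleotide, as the stretch of the 35S ribosomal DNA repeat annotated 5.8S in the deposited position tables. Every position with that annotation was used, which gave nucleotide (nt) 109, the highest peak, and 157 others, out of 6858 positions in the repeat. Nucleotides are counted here from 1 at the 5′ end of 5.8S. The gene lies on the minus strand of chromosome XII at 464551 to 464708 of the R64 assembly (RDN58-2), in the exon of an rRNA gene inside the 35S transcript RDN37-2, and no protein-coding gene is annotated over it. A second annotated copy, RDN58-1 at 455414 to 455571, differed at 0 bases, so the reads belong to no single copy.

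RNA polymerase I (Pol I) was followed with NET-seq, native elongating transcript sequencing, in cultures taken at early, mid and late log, 3 libraries each. NET-seq reads the 3′ end of RNA that comes down with the tagged polymerase, so each value counts the RNA ends at 1 nucleotide. All 9 libraries came from 1 MATa strain with the tagged second-largest Pol I subunit, RPA135-(HA)3-(His)7::TRP1, in which TRP1 marks the tag. The genotype also lists ade2-1, ura3-1, trp1-1, a leu2 double mutation, his3-11 and can1-100. Cells were grown in YPD, a rich glucose medium, and the groups differed by subphase. The study describes the 3 libraries of a subphase as biological replicates. The p-values set differences between subphases against the spread among those libraries, and limma also draws on the spread at other positions of the repeat.

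The 5.8S rRNA lies between the 2 internal transcribed spacers (ITS 1 and ITS 2) of the precursor that Pol I makes, and in the large ribosomal subunit it pairs with 25S rRNA. Its 5′ end is formed by nucleases acting in ITS 1, and its 3′ end is formed later, when a cleavage in ITS 2 leaves an extended precursor that the exosome and other exonucleases trim. Mature 5.8S is abundant and has a 3′ end of its own. RNA ends left by processing and RNA ends inside the polymerase cannot be told apart in these values, and no untagged control was analysed here.

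Depth ranged from 350940 to 7307420 reads on the repeat and from 10371 to 579041 reads in 5.8S. Values are RPM (reads per 1000000 reads of the repeat), so they are shares and not amounts per cell, and fewer polymerases on the gene cannot be told apart from more elsewhere in the repeat. A count of 0 allowed up to 3 reads, or 0.411 to 8.55 RPM depending on the library. All mid log libraries were on a sequencing run of their own, so mid log and its run cannot be told apart. The late log libraries and early log replicate 1 shared another run.

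The sequence of 5.8S is given first, to show where its peaks lie. Capitals mark nt 10, 109, 153, 154 and 156, which are the peaks described in the text.
5.8S: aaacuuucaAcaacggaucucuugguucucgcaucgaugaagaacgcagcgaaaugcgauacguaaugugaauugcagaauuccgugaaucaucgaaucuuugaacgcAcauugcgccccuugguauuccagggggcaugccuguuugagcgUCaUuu

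The gene as a whole held a larger part of the repeat's reads at mid and late log than at early log. Its share of reads was 3.45%, 3.45% and 2.96% at early log, 6.86%, 7.38% and 8.06% at mid log, and 4.94%, 4.74% and 5.43% at late log. No 2 subphases overlapped. The order was early, late, mid, with means of 3.28% ± 0.285, 5.04% ± 0.353 and 7.43% ± 0.602 (SD, n = 3). The 3 subphases differed by an exact permutation test on F (p = 0.00357, n = 3 per subphase, the smallest the design can give). The 95% Wilson intervals of single libraries were 0.0331 to 0.112 percentage points wide and cover counting error only.

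Leaving out nt 109 changed that order. The share without it was 3.37%, 3.20% and 2.82% at early log, 3.74%, 3.81% and 3.89% at mid log, and 4.38%, 4.29% and 4.96% at late log. The libraries again fell into 3 separate groups, now in the order early, mid, late (exact permutation test, p = 0.00357, n = 3 per subphase). With nt 109, mid log stood 2.26-fold over early log and late log 0.678-fold of mid log. Without it these became 1.22-fold and 1.19-fold, so the step from mid to late changed direction. Late log stood 1.54-fold over early log with nt 109 and 1.45-fold without it. Each pair gave p = 0.10 in the exact two-sided permutation test, which is the smallest that 3 libraries against 3 can reach.

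**Figure D1:**
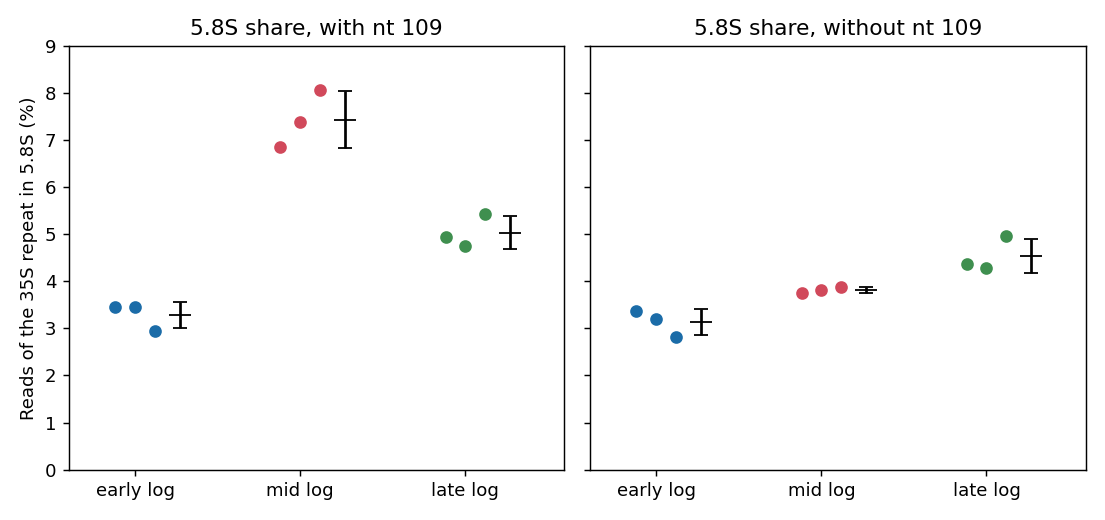
Percent of the reads on the 35S repeat that ended in 5.8S, per library (points) with the mean and SD (black), with nt 109 on the left and without it on the right. Mid log is highest on the left (6.86% to 8.06%) and lies between early and late log on the right (3.74% to 3.89%).

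The change from early to mid log outside nt 109 depended on a few positions. It was 0.29 on the log2 scale with all of them, 0.0029 without the 3 next highest (nt 153, 154 and 156), and -0.079 without the 10 positions next to each end. These are net values, since the first 53 nt fell, and the next 53 nt and the last 52 nt rose. The median RPM over all 5.8S positions was 142.8 ± 11.3 at early log, 130.7 ± 5.45 at mid log and 172.2 ± 6.60 at late log (SD, n = 3). By its mean, mid log was the lowest subphase there and late log the highest, although early 1 (130.9 RPM) lay within the mid log range.

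An adenosine at nt 109 (chromosome XII, 464600) was the peak that set the mid log value. It held 791, 2553 and 1359.5 RPM at early log, 32395, 37028 and 43420.5 RPM at mid log, and 5929, 4722 and 4955 RPM at late log. The subphases did not overlap. Nt 109 ranked first of all 6858 positions in each mid log library, 3rd in each late log library, and 75th, 4th and 10th at early log replicates 1, 2 and 3. It held 47.2% to 53.9% of all 5.8S reads at mid log, 9.13% to 11.99% at late log and 2.29% to 7.41% at early log.

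The neighbours of nt 109 did not share its height. Cytidine 108 held 344, 334 and 343 RPM at mid log, and cytidine 110 held 170.5, 159 and 150.5 RPM. Nt 109 stood over the median of its 10 neighbours on each side by 5.08, 14.0 and 8.75 times at early log, 159, 193 and 262 times at mid log, and 32.5, 24.4 and 24.3 times at late log. From early to mid log nt 109 rose by 4.74 ± 0.83 on the log2 scale (SE, limma adjusted p = 0.0130), and from mid to late log it fell by 2.85 ± 0.75 (SE, limma adjusted p = 0.0146). The change from early to late log was 1.89 ± 0.42 (SE, limma adjusted p = 0.00511). Early 1, on the same run as late log, held the least at nt 109 of all 9 libraries, and with run as a term the early to late change was 2.71. That term leaves early 1 as the only early log library set against late log.

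2 of these calls were lost when a library was left out. The early to mid call was lost without early 3 (limma adjusted p = 0.108), mid 2 (0.0624) or mid 3 (0.0617), with changes of 4.32 to 5.17 over all libraries left out in turn. The mid to late call was lost without mid 2 (limma adjusted p = 0.0611), late 1 (0.119), late 2 (0.194) or late 3 (0.145), with changes of -2.95 to -2.74. Without the filter on low values the limma adjusted p was 0.0507 from early to mid log and 0.133 from mid to late log, and with the median log ratio of all positions set to 0 it was 0.144 from mid to late log.

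**Figure D2:**
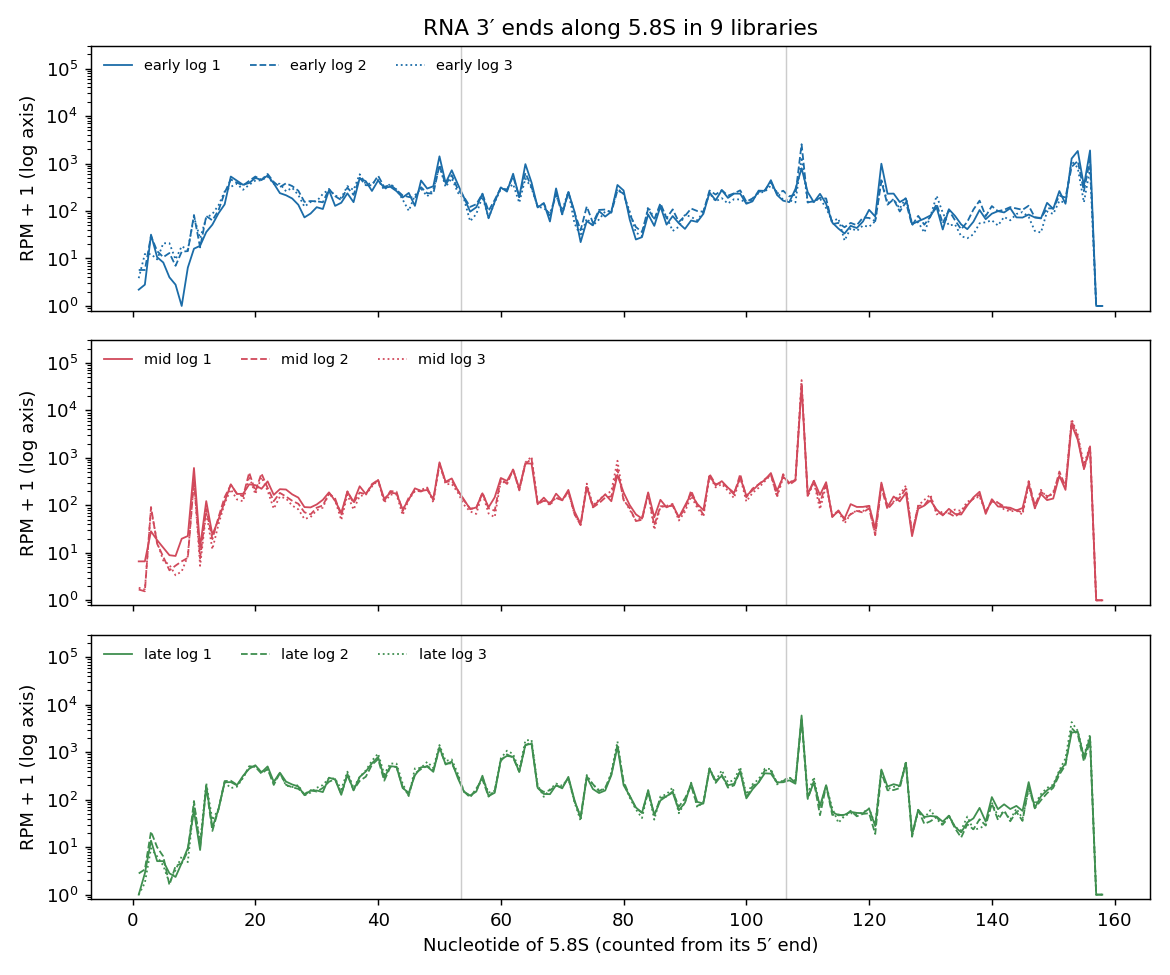
RPM + 1 on a log axis at each nucleotide of 5.8S, with a panel per subphase and a line per library. Grey lines divide the gene into its first 53, next 53 and last 52 nt. The peak at nt 109 stands at 32395 to 43420.5 RPM at mid log and at 791 to 2553 RPM at early log, and the last 2 nucleotides are at 0 in all 9 libraries.

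The bases that follow nt 109 resemble the linker that is ligated to RNA 3′ ends and trimmed from reads. On the RNA strand the trimmed sequence reads CANNNNNNNNCU, that is CA, 8 barcode bases of any kind, and CU. A search of the repeat's RNA strand found it 13 times, of which 2 were in 5.8S, and the other strand held 40 matches. Of all windows of the repeat as long as 5.8S, 26.1% held at least 1 match and 4.58% held at least 2. The sites right after nt 10 and nt 109 of 5.8S, and after nt 3224 of 25S, are shown because each follows a mid log peak. In each line the first base is the peak position and capitals mark the 4 fixed letters.
5.8S nt 10: aCAacggaucuCU
5.8S nt 109: aCAuugcgcccCU
25S nt 3224: gCAacggugcaCU

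Nt 10 (chromosome XII, 464699), the other 5.8S position before a match, was also highest at mid log. It held 15.1, 81.4 and 74.1 RPM at early log, 612, 341 and 344 RPM at mid log, and 57.1, 92.8 and 78.5 RPM at late log. Mid log lay above both other subphases, which overlapped each other. Nt 10 rose by 3.17 ± 0.58 on the log2 scale from early to mid log (SE, limma adjusted p = 0.0149) and fell by 2.46 ± 0.24 from mid to late log (SE, limma adjusted p = 0.000170). As at every 5.8S position, the early to mid call was lost without mid 2 or without mid 3. Among all positions of the repeat nt 10 ranked 112th to 566th at mid log and 3053rd or lower in the other libraries.

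At all 11 positions before a match outside 5.8S, the mid log mean RPM was above the early log mean and above the late log mean. All mid log libraries lay above all early log libraries in RPM at 9 of the 11 (81.8%), and above all late log libraries at 11 of 11. At positions with 0 of the 4 letters these shares were 15.9% and 32.3%. The median height over 20 neighbours at the 11 was 1.94 at early log, 9.15 at mid log and 2.18 at late log. Nt 109 was the highest of the 13 by this ratio at mid log (202) and at late log (26.9), and nt 10 was the 4th at mid log (26.0).

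Positions before part of the letters did not stand out. Over 253 positions with 3 of the 4 letters, the median height over neighbours was 1.03 at early log, 1.00 at mid log and 1.08 at late log. The 4 such positions in 5.8S had medians of 0.634, 0.921 and 0.818. Where CA alone was present (316 positions), the mid log median was 0.945. A match describes letters only, and whether reads at nt 109 and nt 10 came from priming on, or trimming of, these bases was not tested.

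**Figure D3:**
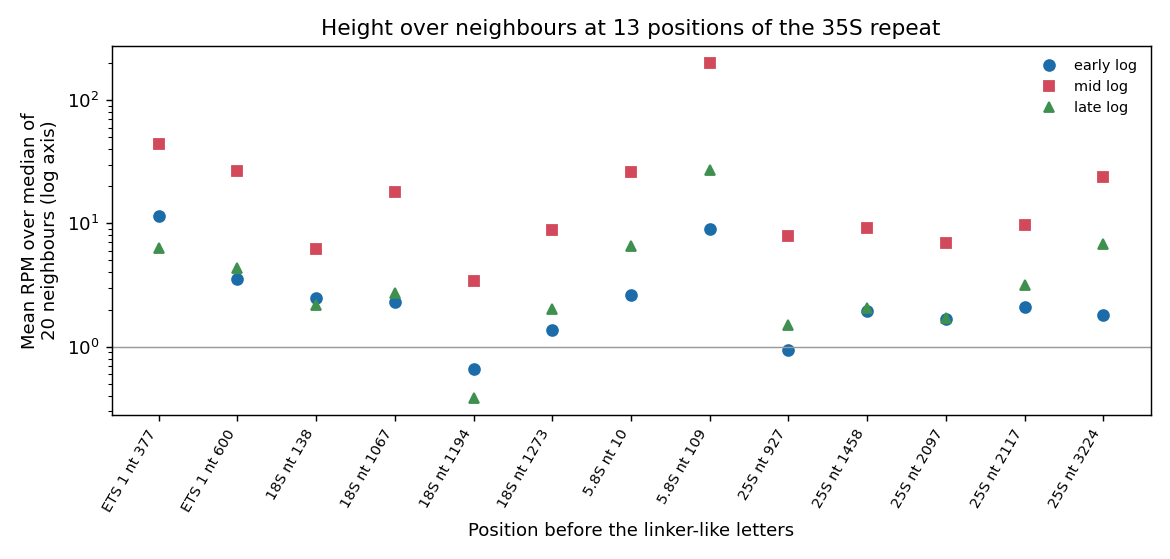
Mean RPM over the median of the 20 nearest positions (log axis) at the 13 positions of the repeat that precede all 4 linker-like letters, with a symbol per subphase. Mid log is the highest of the 3 at each of the 13, and 5.8S nt 109 reaches 202 there against 9.05 at early log.

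A cluster at the 3′ end of 5.8S made up the second group of peaks. Uridine 153 was the highest 5.8S position after nt 109 by its mean over all 9 libraries, and at mid and late log, while at early log nt 156 and nt 154 had higher means. It held 1271, 850.0 and 1123 RPM at early log, 5016, 5888 and 6544 RPM at mid log, and 2587, 3216 and 4298 RPM at late log. The 3 subphases did not overlap. Nt 153 rose by 2.44 ± 0.37 on the log2 scale from early to mid log (SE, limma adjusted p = 0.0107) and by 1.63 ± 0.29 from early to late log (SE, limma adjusted p = 0.00184). The change from mid to late log was -0.81 ± 0.34 (SE, limma adjusted p = 0.0869).

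Cytidine 154 held 1836, 1130.4 and 809 RPM at early log, 2394, 2746 and 3093 RPM at mid log, and 2709, 2359 and 2816 RPM at late log. Mid and late log overlapped there, and both lay above early log. Its change of 1.14 ± 0.32 from early to late log passed the test (SE, limma adjusted p = 0.0155), while that of 1.20 ± 0.37 from early to mid log did not (SE, limma adjusted p = 0.0569). The former call was lost without early 2, early 3, late 1 or late 3 (limma adjusted p = 0.0521 to 0.0603). With run as a term, which sets late log against early 1 alone, the change was 0.51. At nt 156 the subphases overlapped, with 784 to 1887 RPM at early log, 1553 to 1775 RPM at mid log and 1716 to 2372.5 RPM at late log. No comparison at nt 156 passed the test.

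Adenosine 155 held 338, 260.4 and 151 RPM at early log, 593, 578 and 718 RPM at mid log, and 783, 639 and 827 RPM at late log. It rose by 1.40 ± 0.28 from early to mid log (SE, limma adjusted p = 0.0181) and by 1.65 ± 0.27 from early to late log (SE, limma adjusted p = 0.00125). Nt 153 to 156 together held 15.8%, 10.9% and 10.2% of the 5.8S reads outside nt 109 at early log, 26.9%, 29.3% and 32.6% at mid log, and 18.6%, 18.6% and 20.9% at late log. That share separated the 3 subphases without overlap.

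The last 2 nucleotides of 5.8S and the first of ITS 2 were at 0 in all 9 libraries, although nt 156 held between 784 and 2372.5 RPM. In the line for this junction, capitals mark the 3 positions at 0, of which the last is in ITS 2. Whether no RNA ended there or the values were removed was not tested.
5.8S 3′ end and ITS 2 start: ugagcgucauUUCcuucucaa
Past the junction, the first 10 positions of ITS 2 with reads held less at mid and late log than at early log, where nt 153 to 156 of 5.8S held more. From mid to late log the mean of the 5.8S stretch went from 1.09% to 0.878% of the repeat's reads, with overlap between libraries, and ITS 2 was lower again. The ITS 2 stretch held 0.318% to 0.363% of the repeat's reads at early log, 0.246% to 0.295% at mid log and 0.163% to 0.182% at late log.

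The opposite end of 5.8S held few reads. Nt 1 held 0 to 5.61 RPM over the 9 libraries, and nt 2 held 0.547 to 11.4 RPM. Of the first 5 nucleotides, adenosine 3 was the highest, with 30.8, 28.8 and 11.4 RPM at early log, 27.4, 91.3 and 82.3 RPM at mid log, and 12.7, 20.4 and 8.47 RPM at late log. Mid 1 lay within the early log range, but all mid log libraries were above late log. Nt 3 fell by 2.10 ± 0.47 on the log2 scale from mid to late log (SE, limma adjusted p = 0.00676). At nt 4 the change from mid to late log was -1.30 ± 0.39 (SE, limma adjusted p = 0.0254), which was lost without mid 2, mid 3, late 1 or late 3 (0.0678 to 0.0898). Nt 1, 2 and 5 passed no comparison.

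Within 5.8S, mid log reads lay nearer the 3′ end. The first 53 nt held 1.31%, 1.37% and 1.29% of the repeat's reads at early log, 0.898%, 0.8495% and 0.762% at mid log, and 1.43%, 1.38% and 1.55% at late log. Mid log was lowest in this window, at 0.631-fold of early log, and stayed so at 0.796% to 0.928% when nt 109 was left out of the total. The next 53 nt ran from early to late, with 0.947%, 0.959% and 0.810%, then 1.123%, 1.124% and 1.119%, then 1.53%, 1.58% and 1.76%. Late log held the most there, at 1.79-fold of early log.

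In the last 52 nt without nt 109, the shares were 1.11%, 0.868% and 0.718% at early log, 1.65%, 1.76% and 1.92% at mid log, and 1.40%, 1.32% and 1.63% at late log. Mid log was highest here, at 2.01-fold of early log. With nt 109 the same window held 0.853% to 1.19% at early log, 4.84% to 6.18% at mid log and 1.78% to 2.12% at late log. Each window differed over the 3 subphases by an exact permutation test (adjusted p = 0.00357 over 4 tests, n = 3 per subphase). Without the 10 nucleotides next to the 3′ end, the last window without nt 109 no longer did (exact permutation p = 0.0821, n = 3 per subphase).

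**Figure D4:**
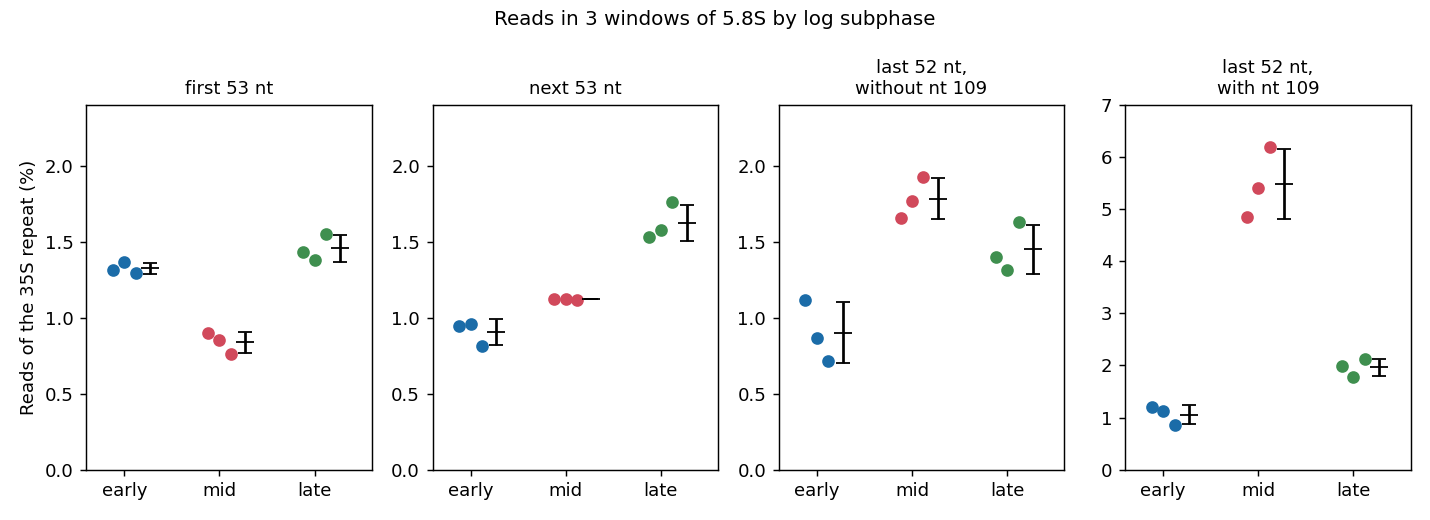
Percent of the repeat's reads in the first 53, next 53 and last 52 nt of 5.8S, per library (points) with mean and SD (black), and the last window without and with nt 109 (its axis reaches 7%). Mid log is lowest in the first window (0.762% to 0.898%) and highest in the last, while late log is highest in the middle window.

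Per nucleotide and without nt 109, the first window stood over the last by 1.13, 1.52 and 1.74 times at early log, 0.540, 0.481 and 0.399 times at mid log, and 0.993, 1.01 and 0.919 times at late log. The reads were also spread over fewer positions after early log. Outside nt 109, the fewest positions that together held 50% of the 5.8S reads numbered 25, 33 and 32 at early log, 22, 19 and 15 at mid log, and 22, 21 and 18 at late log. With nt 109 the numbers were 25 to 31 at early log, 1 or 2 at mid log and 16 to 18 at late log.

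The shape of the profile was described by Spearman correlations over the 155 tested positions other than nt 109, which share libraries and base composition and are not replicates. Libraries of the same subphase correlated with a mean rho of 0.939 at early log, 0.966 at mid log and 0.989 at late log. Between subphases the mean rho was 0.754 for early and mid log, 0.855 for early and late log, and 0.848 for mid and late log. Early and mid log were the least alike.

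By single positions, the comparison of early with mid log took in 156 positions of 5.8S, since the 2 at 0 were not tested. 57 of them passed limma at adjusted p under 0.05 (36.5%), against 19.2% of all positions tested. 25 rose (16.0%, background 6.48%) and 32 fell (20.5%, background 12.7%), and without nt 109 24 of 155 rose. Values of all mid log libraries above all early log libraries were found at 47 positions (30.1%, background 14.3%), and values below at 45 (28.8%, background 26.4%). The median change was 0.03 on the log2 scale in 5.8S and -0.27 over all positions. Relative to that median, 36 positions of 5.8S rose (background 9.68%) and 18 fell (background 6.95%).

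The early to mid count depended on which libraries entered. Without mid 2 or without mid 3, limma called 0 positions of 5.8S, with 66 and 60 at unadjusted p under 0.05, and without early 2 or early 3 it called 33 and 31. With all libraries, edgeR on the recovered reads called 50 positions and DESeq2 called 65.

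Falls from early to mid log were concentrated in the first 53 nt, where 24 positions fell (45.3%, background 12.7%). There 1, nt 10, rose (1.89%, background 6.48%). In that window edgeR called 14 falls and DESeq2 called 17. In the next 53 nt 10 rose (18.9%) and 3 fell (5.66%). In the last window, where 50 positions were tested, 14 rose (28%) and 5 fell (10%), against the same backgrounds. Beside nt 109, the largest rises among positions without overlap were at nt 10, nt 153 and nt 148. Guanosine 148 held 68.8, 70.5 and 34.2 RPM at early log and 173, 191 and 211 RPM at mid log, a change of 1.78 ± 0.29 on the log2 scale (SE, limma adjusted p = 0.0116).

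The largest falls were at nt 13, nt 23 and nt 34. Adenosine 13 went from 50.7, 62.5 and 85.5 RPM to 22.9, 18.5 and 10.9 RPM, a change of -1.89 ± 0.38 (SE, limma adjusted p = 0.0173). Uridine 23 went from 380.1, 408 and 373 RPM to 165, 122 and 83.9 RPM, a change of -1.69 ± 0.24 (SE, limma adjusted p = 0.00933). Uridine 34 went from 148, 169 and 188 RPM to 68.3, 59.5 and 48.0 RPM, a change of -1.52 ± 0.21 (SE, limma adjusted p = 0.00930). These 3 were picked among positions where every mid log library was below every early log library.

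From early to late log, 69 of the 156 positions passed limma (44.2%), against 48.2% of all positions tested, so the share called was near the background and the direction differed. 47 rose (30.1%, background 12.5%) and 22 fell (14.1%, background 35.7%), and without nt 109 46 of 155 rose. Late log lay fully above early log at 58 positions (37.2%, background 15.7%) and fully below at 28 (17.9%, background 42.5%). The median change was 0.14 on the log2 scale in 5.8S and -0.44 over all positions. Relative to that median 71 rose (background 22.2%) and 9 fell (background 19.1%). With run as a term limma called 66 positions, and without late 3 it called 44.

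Rises from early to late log were most frequent in the next 53 nt. There limma called 24 rises (45.3%, background 12.5%) and 0 falls (background 35.7%). At unadjusted p under 0.05 there were 2 falls in that window, and edgeR and DESeq2 called 0. Adenosine 65 held 398, 322 and 302 RPM at early log, 756, 965 and 1061 RPM at mid log, and 1498, 1629 and 1819 RPM at late log. It rose by 2.276 ± 0.20 on the log2 scale from early to late log (SE, limma adjusted p = 4.59e-05). Adenosine 79 held 352, 272 and 296 RPM at early log, 436, 573 and 869 RPM at mid log, and 1308, 1446 and 1684 RPM at late log, a rise of 2.27 ± 0.20 (SE, limma adjusted p = 4.58e-05). At both positions the 3 subphases were separate and ran from early to mid to late.

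Uridine 74 held 60.3, 124 and 68.4 RPM at early log and 298, 306 and 329.6 RPM at late log, a rise of 1.95 ± 0.25 (SE, limma adjusted p = 0.000359). Uridine 64, among the 6 highest positions after nt 109, held 971, 633 and 487 RPM at early log and 1425, 1390 and 1770 RPM at late log, a rise of 1.18 ± 0.27 (SE, limma adjusted p = 0.00624). Late log was above early log in all libraries at both.

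The largest falls from early to late log were at nt 6, nt 131 and nt 112. Adenosine 131 held 119, 140.7 and 208 RPM at early log and 43.1, 41.9 and 38.5 RPM at late log, a change of -1.86 ± 0.24 on the log2 scale (SE, limma adjusted p = 0.000328). Uridine 112, which lies 3 positions past the peak at nt 109, held 229, 188 and 182 RPM at early log and 73.0, 46.1 and 64.7 RPM at late log, a change of -1.71 ± 0.22 (SE, limma adjusted p = 0.000315). Nt 6 was a low position with 3.02 to 19.95 RPM at early log and 0.599 to 1.81 RPM at late log. Its change of -2.37 ± 0.69 (SE, limma adjusted p = 0.0175) was lost without early 2, early 3, late 2 or late 3 (0.0583 to 0.0633). With run as a term, which sets late log against early 1 alone, the change was -1.01.

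From mid to late log, 96 of the 156 positions passed limma (61.5%), against 38.8% of all positions tested. 65 rose (41.7%, background 16.6%) and 31 fell (19.9%, background 22.2%), and without nt 109 30 of 155 fell. Late log lay fully above mid log at 71 positions (45.5%, background 21.4%) and fully below at 42 (26.9%, background 29.5%). The median change was 0.26 on the log2 scale in 5.8S and -0.14 over all positions. The share of falls in 5.8S was near that of the repeat, and the share of rises was above it.

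The direction changed along the gene. In the first 53 nt 34 positions rose (64.2%) and 3 fell (5.66%). In the next 53 nt 25 rose (47.2%) and 1 fell (1.89%), and in the last window 6 rose (12%) and 27 fell (54%). Of all positions tested in the repeat, 16.6% rose and 22.2% fell. The largest rises were at nt 49, nt 61 and nt 43. Guanosine 49 held 135, 128 and 114 RPM at mid log and 385, 422 and 464 RPM at late log, a rise of 1.74 ± 0.11 on the log2 scale (SE, limma adjusted p = 6.47e-05). Adenosine 61 held 326, 283 and 278 RPM at mid log and 833, 899 and 1077 RPM at late log, a rise of 1.66 ± 0.13 (SE, limma adjusted p = 7.06e-05). Adenosine 43 held 176, 193 and 169.7 RPM at mid log and 491, 488 and 574 RPM at late log, a rise of 1.52 ± 0.11 (SE, limma adjusted p = 6.47e-05). These 3 were picked among positions where mid and late log did not overlap.

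Beside nt 109, the largest falls from mid to late log were at nt 10, nt 137 and nt 3. Cytidine 137 held 146, 138 and 135 RPM at mid log and 39.4, 22.8 and 22.3 RPM at late log, a change of -2.32 ± 0.22 on the log2 scale (SE, limma adjusted p = 0.000148). Early log held 58.5, 106.6 and 31.4 RPM there, below mid log and overlapping late log. Cytidine 50, the highest position of the first window, held 805, 729 and 794 RPM at mid log and 1281, 1195 and 1415 RPM at late log, a rise of 0.74 ± 0.13 (SE, limma adjusted p = 0.00215).

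**Figure D5:**
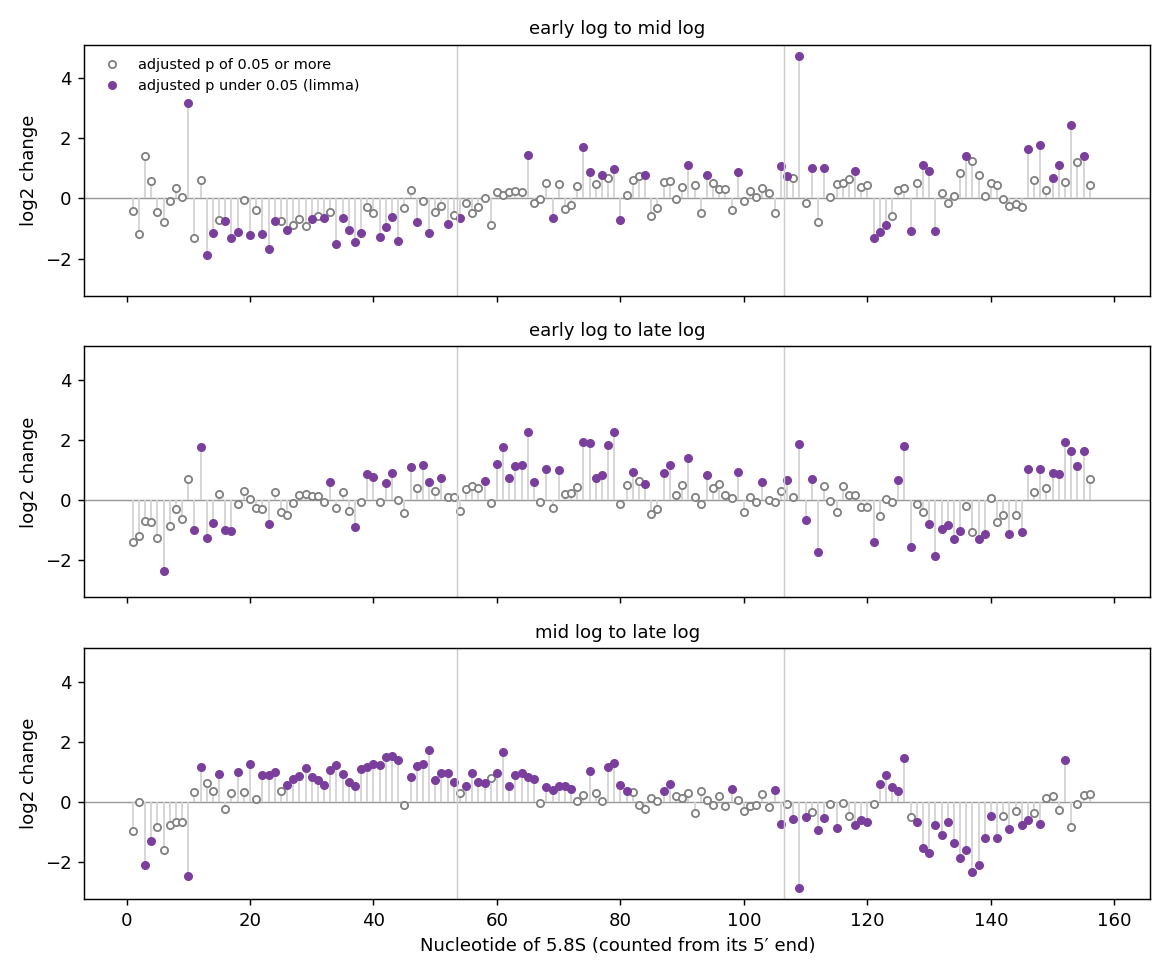
Change on the log2(RPM + 1) scale at each nucleotide of 5.8S in the 3 comparisons, the second subphase minus the first. Filled points passed limma at adjusted p under 0.05 (57, 69 and 96 of 156) and open points did not. Early to mid log shows falls in the first 53 nt, and mid to late log shows rises in the first 2 windows and falls in the last.

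Of the 156 positions with reads, the mean was highest at late log at 64, at early log at 49 and at mid log at 43. Mid log had the highest mean at 4 positions of the first 53 nt, 9 of the next 53 and 30 of the last window. For these counts of highest means no background over the repeat was taken, so they describe this gene only. All 3 late log libraries lay above all 6 others at 36 positions (23.1%, against 9.80% of all positions of the repeat with reads), 22 of them in the middle window. All 3 mid log libraries did so at 22 positions (14.1%, background 6.43%), 18 of them in the last window. All 3 early log libraries did so at 13 positions (8.33%, background 19.0%).

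Against the other mature rRNA genes, 5.8S held more reads per nucleotide in the later subphases. The ratio of mean RPM per nucleotide of 5.8S over 18S without nt 109 was 1.31, 1.11 and 0.975 at early log, 1.503, 1.55 and 1.67 at mid log, and 1.89, 1.78 and 2.11 at late log. Over 25S it was 1.16, 1.24 and 1.08 at early log, 1.31, 1.28 and 1.28 at mid log, and 1.42, 1.43 and 1.63 at late log. Subphases did not overlap in either ratio. Both differed over the 3 subphases by an exact permutation test (adjusted p = 0.00357 over 4 tests, n = 3 per subphase). Without nt 109, 153, 154 and 156, the 5.8S share changed by 0.0029 on the log2 scale from early to mid log. The mean of 25S went from 172 to 181 RPM per nucleotide, so the early to mid rise over 25S depended on those positions. From early to late log that share still rose, by 0.44.

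With nt 109 the ratio over 18S was 1.02 to 1.34 at early log, 2.83 to 3.59 at mid log and 1.97 to 2.30 at late log. The ratio over 25S averaged 1.21 ± 0.110, 2.59 ± 0.140 and 1.66 ± 0.115 in the same order (SD, n = 3). The mean of 18S itself was 177 ± 11.6 RPM per nucleotide at early log, 149 ± 5.85 RPM at mid log and 149.4 ± 3.00 RPM at late log (SD, n = 3). For 25S it was 172 ± 11.5, 181 ± 5.14 and 193 ± 2.09 RPM, so the ratio over 18S holds a change in 18S as well.

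The last base of the RNA in 5.8S also moved with subphase. Outside nt 109, reads ending at uridine were 32.9%, 30.5% and 30.6% of 5.8S reads at early log, 36.2%, 35.9% and 36.8% at mid log, and 29.4%, 29.5% and 30.8% at late log. Uridine was 27.8% of all 5.8S positions, counting nt 109 and the uridines at the 3′ end that held no reads. Mid log was above both others (exact permutation test, adjusted p = 0.0214 over 4 tests, n = 3 per subphase). This excess rested on uridines 153 and 156. Their means were 1081 and 1304 RPM at early log, and 5816 and 1691 RPM at mid log. Without them the mid log share of uridine would lie below that of early log. Reads ending at adenosine were 24.6% to 26.5% at early log, 22.0% to 23.3% at mid log and 28.4% to 29.2% at late log, in 3 separate groups (exact permutation test, adjusted p = 0.0143, n = 3 per subphase). For guanosine the adjusted p was 0.0429 and for cytidine 0.0750 in the same exact permutation test (n = 3 per subphase). Without the 10 positions next to each end the unadjusted p was 0.786 for guanosine and 0.00357 for cytidine in the exact permutation test (n = 3 per subphase). It was 0.025 for uridine and 0.0179 for adenosine, and this test gives no direction. The guanosine call was also lost without any 1 mid log library, late 1 or late 3 (exact permutation p = 0.05 to 0.0750), and cytidine reached 0.0321 without early 1 or early 3 in the same exact test. Nt 153 and 156, which are uridines, and nt 154, a cytidine, lie in that stretch.

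Positions elsewhere in the repeat that ran most like nt 109 were sought among 5934 positions outside 5.8S with a mean of at least 10 RPM, by Pearson's r of log2(RPM + 1) over the 9 libraries. The 3 highest were in 25S, at nt 752 (r = 0.988), nt 3224 (r = 0.984) and nt 700 (r = 0.974). Nt 3224 of 25S held 190.5 ± 33.6 RPM at early log, 2216 ± 411 RPM at mid log and 384 ± 18.3 RPM at late log (SD, n = 3), and precedes all 4 linker-like letters. Nt 752 of 25S held 37.8 ± 13.7, 179.7 ± 8.30 and 62.8 ± 1.93 RPM and precedes 2 of the 4. Nt 700 of 25S held 75.4 ± 43.8, 551 ± 46.4 and 192 ± 13.2 RPM and precedes none of them. The bases from each of these last positions on are shown for comparison with nt 109, with capitals where the 4 fixed letters would lie.
25S nt 752: cCGauccugauGU
25S nt 700: cGCguaaugaaAG

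The summed level of 5.8S without nt 109 ran most like nt 708 of 25S (r = 0.989), nt 67 of 18S (r = 0.981) and nt 3113 of 25S (r = 0.971), over the same 9 libraries. Nt 708 of 25S held 244 ± 53.4 RPM at early log, 363 ± 23.6 RPM at mid log and 529 ± 60.5 RPM at late log (SD, n = 3). These 3 positions followed the order early, mid, late, and the 3 found for nt 109 followed the order early, late, mid. The correlations share the 3 subphases, the runs and the depth of the libraries, so they are descriptions only.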

How the data were processed

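RNA was immunoprecipitated with HA-tagged Pol I and ligated to a 3′ linker with a random barcode. Per the study's methods, the authors collapsed duplicates with Fqtrim, trimmed with Cutadapt 3.4, aligned to R64 with STAR 2.7.3a, used SAMtools 1.12 and, by strand, recorded where each read began with BEDTools 2.28.0. The deposited values are RPM, which the authors obtained by scaling so that positions 1 to 6739 of each library sum to 1000000 (found from the values). Positions beyond are listed on the same scale. Columns with means, medians, confidence intervals, ratios and p-values of the authors' own comparisons were not used. Tables carry generic column names, and their subphase was taken from the sample descriptions that name the same tables. Each library stood in 2 tables with equal values.

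The smallest value above 0 was worth 1 read, and 99.9% to 100% of values were whole reads within 0.01 read. The test per position was limma 3.58.1 (R 4.3.3, lmFit and trended eBayes) on log2(RPM + 1) where the mean reached 1 RPM. This scale understates changes of low positions. Benjamini-Hochberg adjustment ran over all positions of the repeat, with a threshold of 0.05. Shares were tested on the log2 scale with exact two-sided permutation tests over libraries. edgeR 4.0.16 and DESeq2 1.42.0 on recovered reads were alternatives. The positions named were nt 109, the 6 next highest, the first and last 5, those before linker-like letters, the 3 largest rises and falls per comparison without overlap, and those running most alike elsewhere. Members and lists were chosen with earlier results of these data known. The 5.8S bases equal those of R64 (RefSeq).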

Additional observations from a re-analysis of the deposited data

How the results depend on the processing

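Depth limits the low positions most, since 3 reads were worth 8.55 RPM in early 3. Across the comparisons of 5.8S, 245 recomputed values were counted as unchanged and 5 changed direction. A further 16 lost a call or had a count lower by over 1.5 times, and 3 gained a call. Tests over all subphases were judged by the side of the threshold alone, and counts of positions by their size. Direction was compared only for changes of share between pairs of subphases, so an unchanged test may hide another direction. The early to mid share changed to -0.12 with the median RPM per position in place of the sum. Without nt 109, that change became -0.079 without the 10 positions next to each end and -0.11 with the median. Without the 4 highest positions (nt 109, 153, 154 and 156), the early to mid share kept its sign at 0.0029, against 1.18 with them. The mid to late share changed to 0.44 without the 4 highest positions and to 0.40 with the median. Without the end positions, the last window without nt 109 had p = 0.0821 (exact permutation test), reads ending at guanosine 0.786 and reads ending at cytidine 0.00357.

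A t-test with unequal variances was run per position on RPM, where the study names Student's t-test. It called 63, 66 and 92 positions of 5.8S unadjusted for early to mid, early to late and mid to late. After Benjamini-Hochberg adjustment it called 0, 11 and 31. No background over the repeat was taken for these counts. With limma, the libraries left out in turn gave 0 to 68 early to mid calls, 44 to 84 early to late calls and 78 to 103 mid to late calls. The exact p ranged from 0.0321 to 0.154 for cytidine and from 0.00357 to 0.0750 for guanosine over the libraries left out. Of single positions named, 1292 recomputed values stayed on the same side of the threshold, called or not. Of the rest, 136 lost a call, 41 gained one and 0 reversed.

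Deviations of same-numbered libraries from their group means gave r from -0.47 to -0.23 for early and mid log. They gave -0.06 to 0.24 for early and late, and -0.36 to 0.36 for mid and late. Deviations centred within groups of 3 constrain each other, so this check cannot decide whether same-numbered libraries are paired. The main tests used no pairing. With the replicate block, 22, 70 and 97 positions were called for early to mid, early to late and mid to late log. The share tested within numbers gave p = 0.25 (exact) for each pair, the smallest that 3 pairs allow. The cause of these shifts was not tested.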
